A study of Mus musculus with 16 samples.

Results

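The genes Ttbk1, Phf1, Ccar2, Ergic3, Ugt8a, Krt79 and Mdga1 were examined in testis RNA of mice that had lost Ythdc2. They are 7 of the 55414 gene rows of each deposited table, and all 7 were found by symbol: Ttbk1 (ENSMUSG00000015599), Phf1 (ENSMUSG00000024193), Ccar2 (ENSMUSG00000033712), Ergic3 (ENSMUSG00000005881), Ugt8a (ENSMUSG00000032854), Krt79 (ENSMUSG00000061397) and Mdga1 (ENSMUSG00000043557). They were chosen by their measured values at postnatal day 16 (P16), which were clearly lower in the knockout than in 1 or both kinds of control. Their P16 differences are therefore given as a description, with no test, and the tests are those at postnatal day 14 (P14), which the choice did not use.

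The study compared 16 testis libraries. At each stage there were 2 control libraries and 3 libraries of the Ythdc2 conditional knockout (cKO), and 2 (P14) or 4 (P16) libraries of a Cre control. Mice of all 3 kinds were given tamoxifen on P12 and again on P13 (10 mg per ml), per the labels. Tamoxifen switches on an inducible Cre recombinase, but the labels name neither the Cre driver nor the strain or the genotype of either control type. Ribosomal RNA was removed with Ribo-Zero components (called the first kit here) in the control libraries and in the cKO libraries numbered 1 and 2. The Cre controls and the cKO libraries numbered 3 were prepared with the NEBNext rRNA Depletion Kit v2 (the second kit). Control type and kit thus go together, and a difference between the control types and one between the kits cannot be told apart. Nothing in the labels says that replicates came from separate animals, so p-values measure only the spread between these libraries.

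Ythdc2 encodes an RNA helicase that binds RNA carrying methylated adenosine and is needed for male germ cells to carry meiosis through. Between these ages the first spermatocytes of a mouse testis advance through meiotic prophase, so the cell makeup of the testis changes between the stages. In whole testis, fewer cells of a type and less RNA per cell cannot be told apart.

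The genes have different known roles. Phf1 encodes an accessory subunit of Polycomb repressive complex 2 (PRC2), which methylates histones, and Ccar2 encodes a nuclear protein that inhibits the deacetylase SIRT1. Ttbk1 encodes a kinase of the microtubule protein tau, known mainly from neurons. Ergic3 encodes a membrane protein that cycles between the endoplasmic reticulum and the Golgi. Ugt8a encodes the galactosyltransferase that makes galactosylceramide and the precursor of seminolipid, the main glycolipid of male germ cells, and male mice without it do not complete spermatogenesis. Mdga1 encodes a membrane-anchored protein that binds neuroligins, and Krt79 encodes a type II keratin known from hair follicles.

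A promoter sequence was found for 6 of the 7 genes in RefSeq (GRCm38.p6), all except Ccar2. Phf1, Mdga1 and Ttbk1 are 3 genes of chromosome 17, and the other members lie on chromosomes 2, 3, 14 and 15. The 250 bases before the start are shown for 3 genes. Ttbk1 stands for the members that were higher at P16 than at P14 in controls, and Ugt8a and Krt79 are a pair with alike profiles and unlike base composition. Capitals mark the letters TGATGTNA in Ttbk1, the letters CNCCTCAG (read on the other strand) in Ugt8a, and the CG pairs in Krt79. The windows are chr17:46487676-46487925, chr3:125938653-125938902 and chr15:101940325-101940574, all on the minus strand.
Ttbk1: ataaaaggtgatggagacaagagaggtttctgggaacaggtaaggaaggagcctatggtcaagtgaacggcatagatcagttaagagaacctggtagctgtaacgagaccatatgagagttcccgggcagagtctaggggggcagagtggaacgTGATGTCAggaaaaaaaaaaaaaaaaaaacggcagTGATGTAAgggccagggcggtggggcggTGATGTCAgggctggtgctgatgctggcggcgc
Ugt8a: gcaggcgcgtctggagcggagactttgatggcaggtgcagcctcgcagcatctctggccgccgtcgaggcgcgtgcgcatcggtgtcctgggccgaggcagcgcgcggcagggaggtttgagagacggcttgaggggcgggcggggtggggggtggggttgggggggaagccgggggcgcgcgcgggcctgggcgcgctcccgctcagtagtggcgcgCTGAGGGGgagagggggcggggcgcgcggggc
Krt79: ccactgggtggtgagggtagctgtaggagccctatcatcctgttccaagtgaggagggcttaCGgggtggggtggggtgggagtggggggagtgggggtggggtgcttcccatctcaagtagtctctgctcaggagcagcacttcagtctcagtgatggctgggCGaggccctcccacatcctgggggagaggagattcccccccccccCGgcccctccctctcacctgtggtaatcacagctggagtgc

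The Ttbk1 window held 3 copies of TGATGTNA on the sense strand. At least 1 copy on either strand was found in 4.80% of all 32851 promoter windows of this length and in none of the other 5 members with a window. These letters were chosen after the sequence had been seen. The Ugt8a window held the only match of the members to CNCCTCAG, the motif bound by the meiotic regulator STRA8, which occurs in 6.42% of all windows. No member's window held TGACGTCA (the cyclic AMP response element, 1.55% of all windows), the NRF1 motif (0.782%), TTTCCCGC (E2F, 0.895%) or GTTGCC (the core of the RFX motif, 10.4%). AACNG, the MYB core, was found in all of these members except Ugt8a, and in 74.2% of all windows. The CG pairs numbered 32 in Ugt8a and 3 in Krt79, with 23 in Phf1, 21 in Mdga1, 13 in Ergic3 and 9 in Ttbk1, against a median of 6 over all windows. A match is a description of letters and not a site in use.

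Libraries held 14494867 to 27531529 reads on genes. Levels are given as CPM, the reads of a gene (recovered from the deposited values) scaled to the library's total, on 1 scale for all 16 libraries, and are compared only within a kit. They are not corrected for gene length, so levels of different genes are not compared. Ythdc2, whose loss defines the cKO group, stood at 32.8% of the control mean at P14 and 19.7% at P16 in the first kit, and at 22.9% and 12.4% of the Cre control mean in the second.

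**Figure D1:**
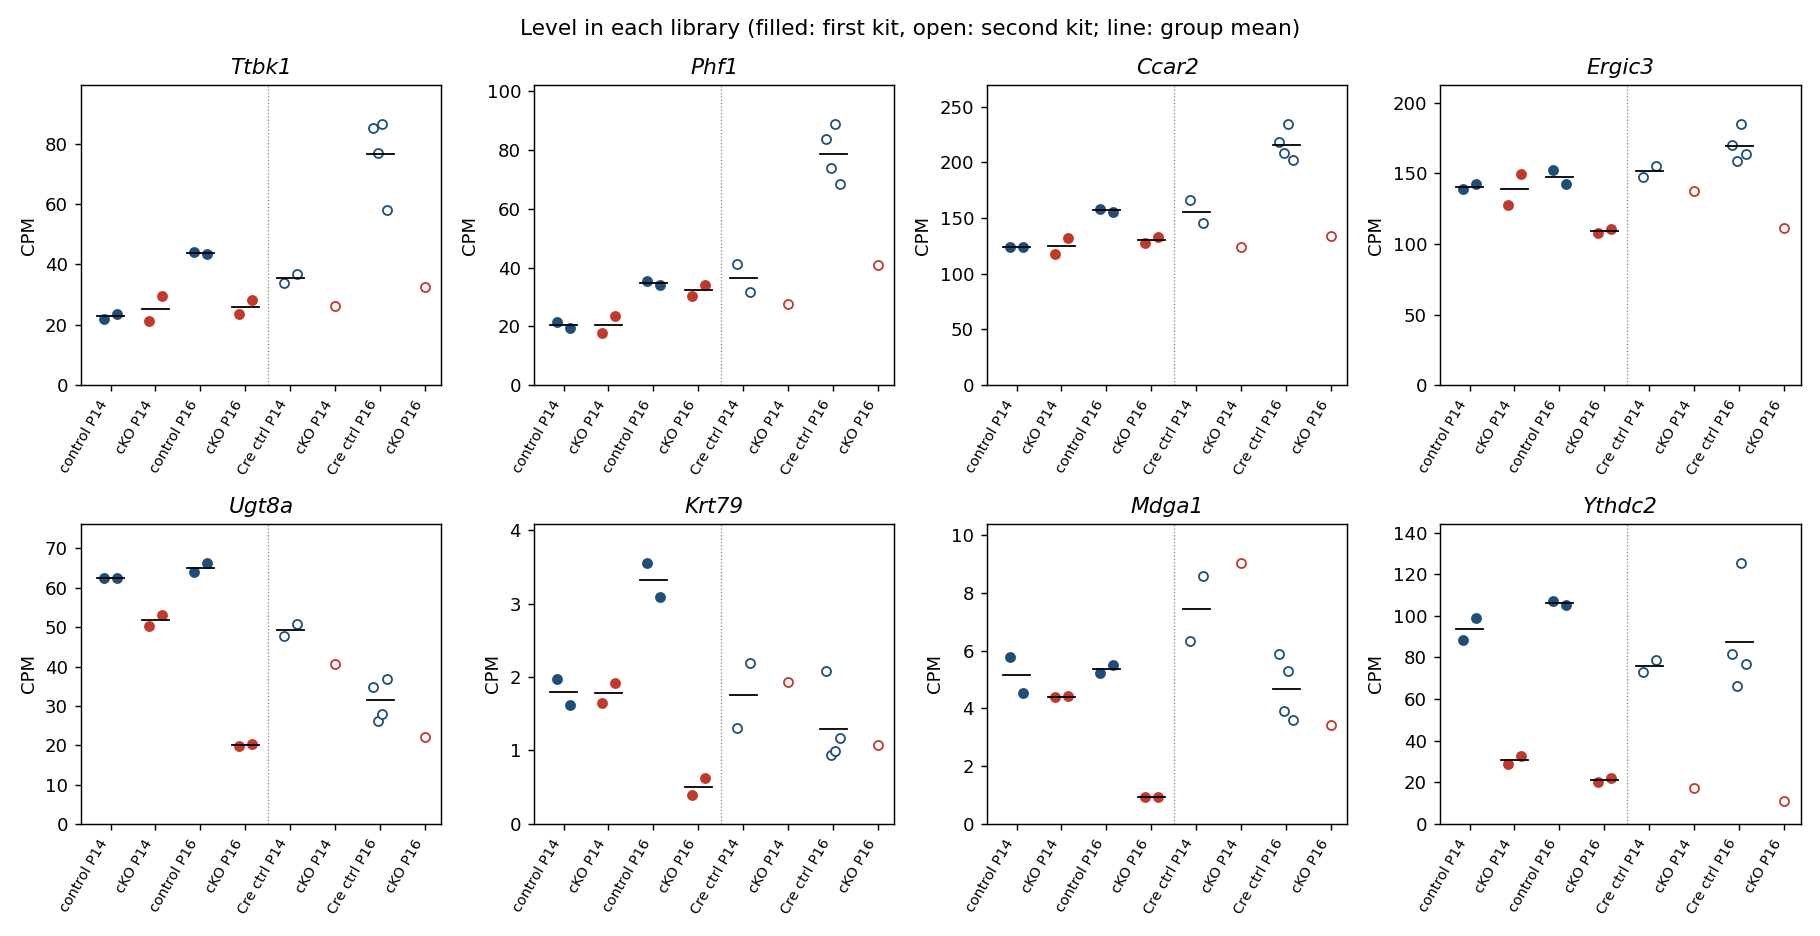
Each panel plots 1 gene: the vertical axis is the level in CPM and the horizontal axis holds the 8 groups of kit, stage and genotype. Points are libraries (blue for either control type, red for cKO, filled for the first kit and open for the second) and lines are group means, with Ythdc2 in the last panel. First-kit cKO libraries of Ttbk1 at P16 lie at 23.7 and 28.1 CPM, under the controls at 43.5 and 44.2.

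Ttbk1, Phf1 and Ccar2 had higher levels at P16 than at P14 in both control types, and in cKO the step was smaller. Ttbk1 stood at 21.9 and 23.7 CPM in the controls at P14 and at 44.2 and 43.5 at P16. In the first-kit cKO libraries it stood at 21.3 and 29.4 CPM at P14 and at 23.7 and 28.1 at P16. The P16 control mean was 1.92 times that of P14, while the cKO mean was 1.02 times its P14 value. The Cre controls held 34.0 and 36.9 CPM at P14, and 85.2, 76.9, 86.5 and 58.2 at P16. The cKO library of that kit held 26.2 CPM at P14 and 32.6 at P16. The Cre control mean at P16 was 2.16 times that at P14, and the cKO value 1.25 times. Every P16 control library of either type thus lay above every cKO library of its kit.

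The P16 difference of Ttbk1 was present in both kits. Against control its log2 change was -0.76 (SE 0.078, limma, 2 against 2 libraries), and cKO held 59.2% of the control mean. The second-kit cKO library stood at 42.5% of the mean of its Cre controls. Cre control library 1 was sequenced in the same run as that cKO library and libraries 2 to 4 in another. Within the shared run cKO was lower by 1.38 on the log2 scale, and against the other run by 1.16.

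Phf1 had nearly the same level in control and cKO of the first kit at P16. It stood at 35.4 and 34.2 CPM in the controls and at 30.4 and 34.1 in cKO, a log2 change of -0.11 (SE 0.070). The groups did not overlap, but the highest cKO and the lowest control library were almost equal. At P14 the same kit had held 21.4 and 19.5 CPM in the controls and 17.7 and 23.4 in cKO, so the step between the stages was 1.70-fold in control and 1.57-fold in cKO. The second kit differed from this. The Cre controls held 41.4 and 31.8 CPM at P14, and 83.9, 74.0, 88.8 and 68.3 at P16, against 27.8 and 40.9 CPM in the cKO library of each stage. There the P16 cKO value was 51.9% of the Cre control mean. The low P16 value of Phf1 was thus seen against Cre control, and hardly against control.

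Ccar2 differed from control by more than Phf1 in the first kit and by less in the second. The controls held 124 CPM in each library at P14 and 158 and 156 at P16. The first-kit cKO libraries held 118 and 132 CPM at P14 and 128 and 133 at P16. The log2 change at P16 was -0.27 (SE 0.044), with 83.0% of the control mean left in cKO. In the Cre controls Ccar2 stood at 166 and 146 CPM at P14 and at 219, 208, 234 and 202 at P16, and the cKO library held 124 and 134. The P16 cKO value was 62.0% of the Cre control mean. At P14 the cKO library of the second kit was below both Cre controls for all 3 genes, where 34.5% of all genes were. It stood at 73.8% of the Cre control mean for Ttbk1, 75.9% for Phf1 and 79.6% for Ccar2. In the first kit the corresponding values were 111%, 100.3% and 100.5%.

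Ergic3 was lower at P16 in cKO by a like amount in both kits. The controls held 139 and 142 CPM at P14 and 152 and 143 at P16, and the first-kit cKO libraries 127 and 149.8 at P14 and 108 and 110.3 at P16. The log2 change against control was -0.43 (SE 0.048), with 74.0% of the control mean left. The Cre controls held 148 and 155 CPM at P14, and 169.8, 159, 185 and 164 at P16. The cKO library went from 137 to 111 CPM, or 65.6% of the Cre control mean at P16. Control means differed little between the stages, with ratios of 1.05 in the first kit and 1.12 in the second, whereas the cKO ratios were 0.788 and 0.809. Ergic3 is the member whose P16 difference was most alike in the 2 kits, at -0.43 and -0.61 as differences of mean log2 CPM.

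**Figure D2:**
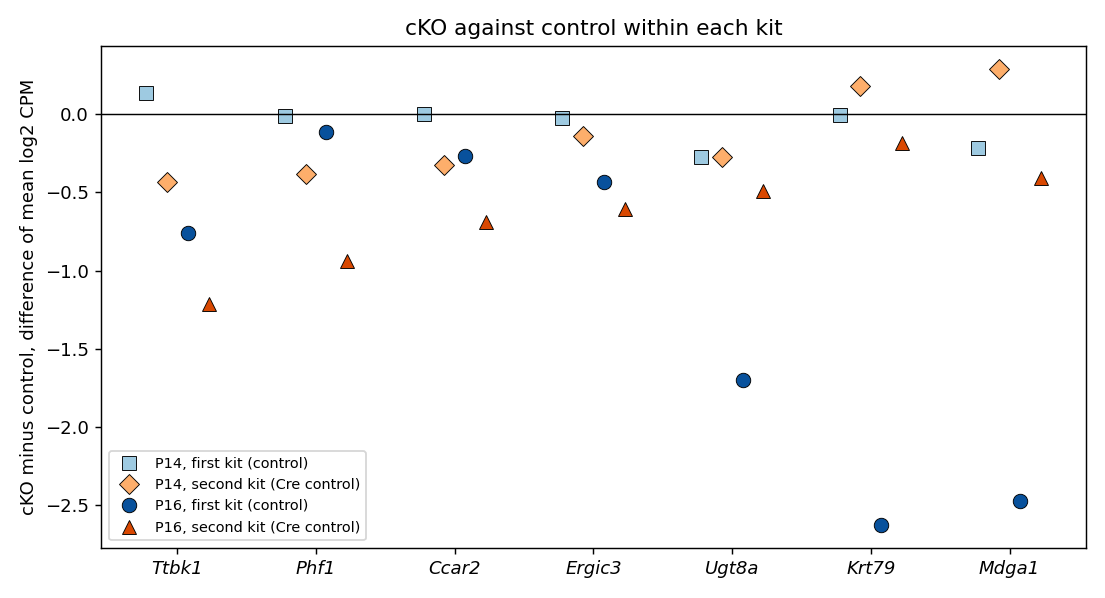
The vertical axis gives the difference of mean log2 CPM between cKO and the control type of the same kit, for each gene on the horizontal axis, at P14 and P16. Ugt8a, Krt79 and Mdga1 show differences of -1.70, -2.63 and -2.48 in the first kit at P16 and of -0.49, -0.18 and -0.41 in the second.

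Ugt8a, Mdga1 and Krt79 were far lower in cKO at P16 in the first kit, and by less in the second. Ugt8a stood at 63.9 and 66.3 CPM in the P16 controls and at 19.8 and 20.2 in cKO. Its log2 change was -1.70 (SE 0.061), and 30.7% of the control mean was left. The P16 Cre controls held 34.8, 26.1, 28.0 and 36.8 CPM and the cKO library 22.1, which is 70.4% of their mean. The groups did not overlap in either kit.

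The step between the stages shows where the 2 control types part for Ugt8a. In control it was 62.5 and 62.6 CPM at P14, so the P16 mean was 1.04 times that of P14. In the Cre controls it was 47.8 and 50.7 CPM at P14, and the P16 mean was 0.638 times that value. The cKO ratio was 0.387 in the first kit, from 50.4 and 53.0 CPM at P14, and 0.543 in the second, from 40.7 CPM.

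Mdga1 followed the same pattern at a low level. Its P16 controls held 5.23 and 5.52 CPM and the first-kit cKO libraries 0.933 and 0.920, resting on 24 and 22 reads. The log2 change was -2.48 (SE 0.20), with 17.2% of the control mean left. The P16 Cre controls held 5.88, 3.91, 5.31 and 3.60 CPM and the cKO library 3.43, just below the lowest Cre control. At P14 Mdga1 stood at 5.78 and 4.55 CPM in control, 4.40 and 4.42 in first-kit cKO, 6.34 and 8.58 in Cre control and 9.05 in the third cKO library. The last value lay above both Cre controls, on the other side from P16.

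Krt79 had the largest first-kit log2 change of the members and the fewest reads. It stood at 3.55 and 3.08 CPM in the P16 controls (85 and 81 reads) and at 0.389 and 0.627 in cKO (10 and 15 reads). The log2 change was -2.65 (SE 0.28), with 15.3% of the control mean left. The P16 Cre controls held 2.09, 0.939, 0.996 and 1.17 CPM and the cKO library 1.08, which lies among them. Against Cre control library 1 of its own run the cKO library was lower by 0.92 on the log2 scale, and against the 3 libraries of the other run its difference was 0.07. At P14 control held 1.97 and 1.61 CPM, first-kit cKO 1.65 and 1.92, Cre control 1.30 and 2.20, and the third cKO library 1.93, so the groups overlapped.

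**Figure D3:**
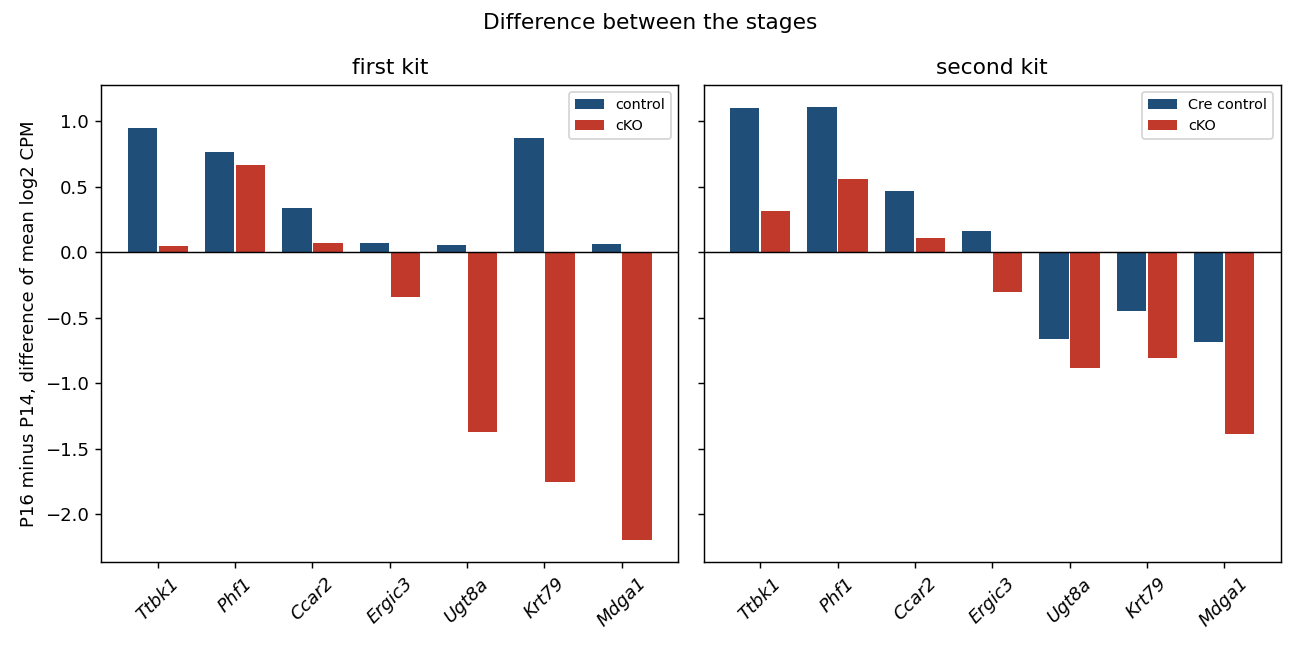
Bars give the difference of mean log2 CPM between P16 and P14 (vertical axis) for each gene, in the control type (blue) and in cKO (red) of the first kit (left, 2 libraries per group) and the second (right, 2 and 4 Cre control libraries and 1 cKO library per stage). The bar of cKO lies below that of the controls for all 7 genes in both panels. The genes were chosen by P16 values that enter these bars, so this was not tested. For Ugt8a the control bars are 0.06 and -0.66.

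Over the members, all 7 had both first-kit cKO libraries below both controls at P16, where 35.4% of all 17986 genes tested did. In the second kit 6 of 7, all except Krt79, had the cKO library below all 4 Cre controls, against 29.0% of 20304 genes. By limma, 6 of 7 were called lower against control (19.9% of all genes), 5 of 7 against Cre control (4.77%, and 9.07% in either direction) and 6 of 7 over both control types (7.49%, and 13.6% in either direction). Against Cre control, leaving out any library except cKO library 3 left 0 genes called. Over both control types, Krt79 lost its call without control library 1 or 2, cKO library 1 or 2, or Cre control library 1 or 3. Mdga1 lost it without control library 1 or 2 or cKO library 1 or 2, Ccar2 lost it without cKO library 3, and Phf1 gained one without cKO library 2. These counts and calls follow from the choice of the genes. They are no test of the members, and nothing is read from them. In first-kit cKO both P16 libraries lay below both P14 libraries for Ergic3, Ugt8a, Krt79 and Mdga1 (31.9% of all genes), and above them for Phf1 (29.7%). In controls, both P16 libraries lay above both P14 libraries for 6 of 7 genes (all except Mdga1), against 28.5% of all genes, and the 4 P16 Cre controls lay above both of P14 for Ttbk1, Phf1, Ccar2 and Ergic3, against 16.1%. The stage steps use the same P16 control libraries as the choice and were not tested.

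When all 9 libraries of P16 were fitted together with a term for the kit, the log2 change was -0.96 (SE 0.14) for Ttbk1, -0.47 (SE 0.15) for Phf1, -0.45 (SE 0.084) for Ccar2 and -0.50 (SE 0.066) for Ergic3. It was -1.16 (SE 0.21) for Ugt8a, -1.55 (SE 0.35) for Mdga1 and -1.54 (SE 0.46) for Krt79. Without cKO library 3 the change was -2.64 for Krt79, -2.48 for Mdga1, -0.26 for Ccar2 and -0.11 for Phf1, so that library moved all 4 by over 1.5 times.

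At P14, the stage the choice did not use, the members could be tested. Against control, limma called 0 of 7 genes, where 0.00579% of 17270 genes were called (adjusted p under 0.05), and 1 of 7 passed an unadjusted p under 0.05. The share of all genes under that unadjusted p is not given here for any P14 fit. Nothing is read from such counts. edgeR and DESeq2 on the recovered reads also called 0 of the 7. The median log2 change of the members was -0.0026, and that of all genes was 0.00897. Ugt8a was the member with the largest difference: 62.5 and 62.6 CPM in control against 50.4 and 53.0 in cKO, with a log2 change of -0.27 (SE 0.061, unadjusted limma p 0.00345, limma adjusted p 0.9997). Ugt8a and Mdga1 were the 2 members of 7 with both cKO libraries below both controls, and 14.5% of all genes tested had that.

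The P14 difference of Ugt8a had the same size in the second kit, where cKO stood at 82.8% of the Cre control mean, against 82.7% of the control mean in the first. When all 7 libraries of P14 were fitted together with a term for the kit, its log2 change was -0.27 (SE 0.058, unadjusted limma p 0.00116), and it did not pass after adjustment over all genes (limma adjusted p 0.993). This fit called 0 of the 7 members, by limma and by edgeR, where 0.00529% of 18892 genes were called, and 1 of 7 passed an unadjusted p under 0.05. The other members had smaller log2 changes in this fit, from -0.16 (SE 0.14, limma adjusted p 0.993) for Phf1 to 0.07 (SE 0.24) for Krt79.

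Against Cre control at P14, 0 of the 7 members and 0 of 18196 genes were called by limma. edgeR and DESeq2 called none of the 7. An unadjusted limma p under 0.05 was reached by 3 of 7 members, Ttbk1, Phf1 and Ccar2, but how many of all genes reached it is not given. Their log2 changes were -0.47 (SE 0.18), -0.68 (SE 0.24) and -0.31 (SE 0.12), each with a limma adjusted p of 0.479. The first-kit cKO libraries in that comparison differ from the Cre controls in kit as well. Leaving out cKO library 3, so that kit and genotype cannot be told apart, gave Phf1 a limma adjusted p of 0.0186. Within the second kit, the cKO library was below both Cre controls for 5 of 7 genes at P14 (all except Krt79 and Mdga1), where 34.5% of all genes were.

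**Figure D4:**
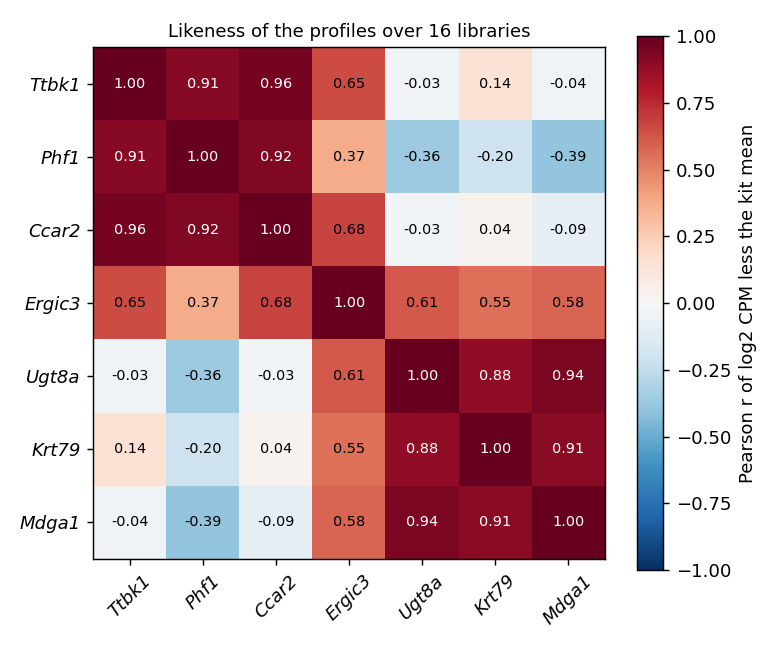
The matrix gives Pearson's r between the members' profiles over 16 libraries, on log2 CPM with the mean of each kit subtracted, with genes on both axes. Ttbk1, Phf1 and Ccar2 form a block with r of 0.91 to 0.96, and Ugt8a, Krt79 and Mdga1 another with r of 0.88 to 0.94.

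The profiles of the members fell into 2 blocks across all 16 libraries. With the mean of each kit subtracted, Pearson's r was 0.908 between Ttbk1 and Phf1, 0.959 between Ttbk1 and Ccar2 and 0.922 between Phf1 and Ccar2. It was 0.939 between Ugt8a and Mdga1, 0.883 between Ugt8a and Krt79 and 0.905 between Krt79 and Mdga1. Between the blocks r ranged from -0.394 (Phf1 and Mdga1) to 0.141 (Ttbk1 and Krt79). Ergic3 stood between them, with 0.677 to Ccar2 and 0.613 to Ugt8a. The libraries share stage, genotype and run, so these values describe the profiles and are no test.

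Among 15976 genes with a mean of at least 1 CPM, the genes most like each member over the 16 libraries were taken by the same measure. For Ttbk1 they were Gtf2h1 (r 0.988), Wdr60 (0.988) and Fbf1 (0.979), and for Phf1 1700037H04Rik (0.987), Ruvbl2 (0.986) and Ankrd45 (0.985). Wdr60 and Fbf1 encode proteins of the cilium and its base. For Ccar2 they were Aamp (0.985), Socs7 (0.984) and Zfp512b (0.976), and for Ergic3 Creld2 (0.968), Shank1 (0.968) and Pias4 (0.962). For Ugt8a they were Pbx3 (0.99), Heatr1 (0.987) and Zcwpw1 (0.987), a reader of histone marks at meiotic recombination hotspots. Krt79 was closest to Plk4 (0.938), Pcdh11x (0.934) and Wdr47 (0.932), and Mdga1 to Hey1 (0.974), Ecsit (0.974) and Mrpl17 (0.972).

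Genes that work with each member were then followed at P16 against control, where limma called 38.6% of all genes tested and the median log2 change of all genes was -0.000495. The seminolipid and ether lipid list around Ugt8a had 2 of 14 genes called lower and 6 called higher, with a median log2 change of 0.148. Gal3st1, the sulfotransferase that completes seminolipid after Ugt8a, fell from 412.5 and 427 to 175.7 and 169 deposited normalized counts (log2 change -1.28, SE 0.098, limma adjusted p 1.4e-06). Its 2 cKO libraries lay far below both controls. Far1, which makes the fatty alcohol of ether lipids, fell by 0.14 on the log2 scale (SE 0.044, limma adjusted p 0.0253). Fa2h, which hydroxylates fatty acids of galactolipids, rose by 1.10 (SE 0.21), Galc, which breaks galactosylceramide down, by 0.79 (SE 0.071), and Ugcg, which makes glucosylceramide, by 0.52 (SE 0.052). Gal3st1, Fa2h, Galc and Ugcg also passed in the fit over both kits, with log2 changes of -0.98, 0.94, 0.51 and 0.47 (limma adjusted p 0.00478 to 0.0172).

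Of 11 other genes of PRC2 around Phf1, 2 were called lower and 1 higher, and the median log2 change was -0.0112. Jarid2, which guides the complex to DNA, fell by 0.40 (SE 0.045) and Eed, a core subunit, by 0.23 (SE 0.053), while the catalytic subunit Ezh2 rose by 0.21 (SE 0.050). Jarid2 alone passed in the fit over both kits (log2 change -0.30, limma adjusted p 0.0167). Of 5 partners of Ccar2, Chek2 fell by 0.32 (SE 0.12) and Sirt1 by 0.18 (SE 0.048), and the other 3 did not pass. Neither passed in the fit over both kits, where 0 of 5 were called by limma.

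Of 22 genes of the early secretory pathway around Ergic3, 3 were called lower and 2 higher, with a median log2 change of -0.00846. Sec23b, a coat protein of vesicles leaving the endoplasmic reticulum, fell by 0.22 (SE 0.049), and the cargo receptor Surf4 by 0.20 (SE 0.042). Sec24a, another coat protein, rose by 0.27 (SE 0.061), and these 3 passed in the fit over both kits as well.  Of 12 genes, tau and kinases of tau or tubulin, 2 were called lower and 1 higher, and the median was -0.00232. Csnk1e fell by 0.38 (SE 0.084) and Gsk3a by 0.18 (SE 0.053), while Mark4 rose by 0.20 (SE 0.052). Of these 3, Gsk3a alone passed in the fit over both kits (log2 change -0.26, limma adjusted p 0.0232).

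Of the 21 keratins listed beside Krt79, 5 passed the filter on low values. Limma called 0 of these, and their median log2 change was -0.155. Krt4 and Krt78, the genes next to Krt79 on chromosome 15, were not among those tested. Of the 7 partners of Mdga1, 1 was called lower and 1 higher. By sign 4 were higher and 3 lower, with a median log2 change of 0.435. Among the lower ones, the paralog Mdga2 fell from 35.3 and 41.6 to 9.70 and 21.8 deposited normalized counts (log2 change -1.33, SE 0.36, limma adjusted p 0.0104). Mdga2 did not pass when both kits were fitted together, and its second-kit cKO library held 30.4 deposited normalized counts, within the Cre control range of 20.7 to 41.8.

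**Figure D5:**
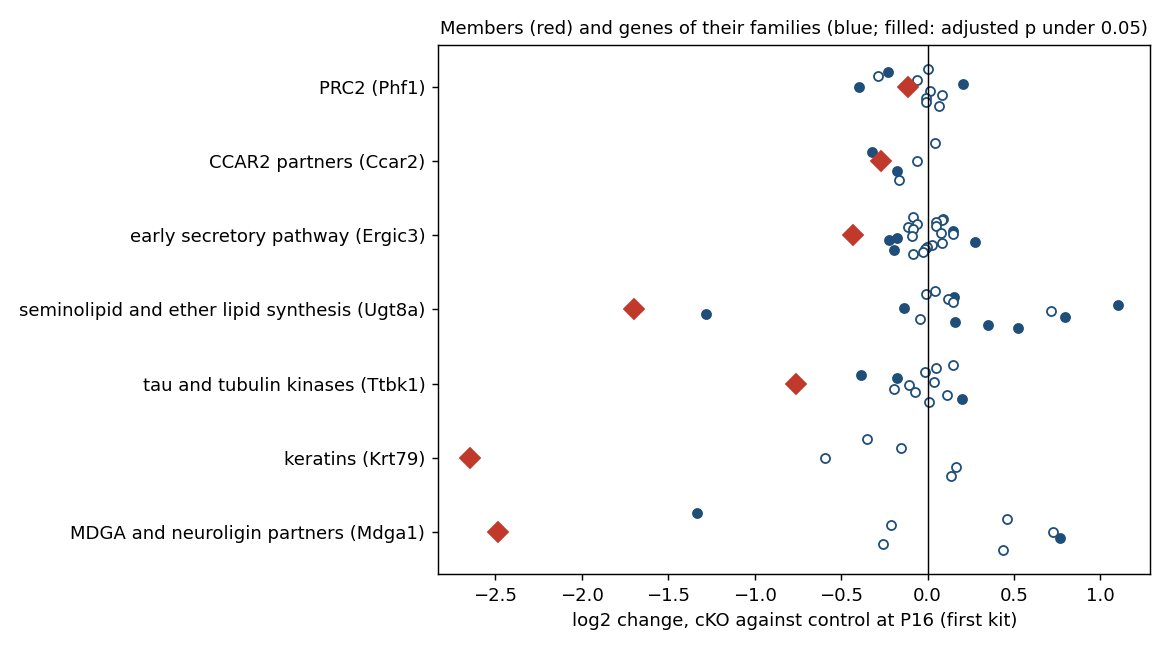
Points give the log2 change of cKO against control at P16 (horizontal axis, first kit, 2 against 2 libraries) for the genes of each list (vertical axis), filled where the limma adjusted p was under 0.05; red diamonds are the members. Gal3st1 (-1.28) lies near Ugt8a (-1.70), and Mdga2 (-1.33) is the lowest partner of Mdga1 (-2.48).

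Genes that overlap or adjoin the members were checked, since how strand was used in counting is not given in the sources used here. Overlaps are those of GENCODE M21 unless RefSeq is named. Ccar2 overlaps Bin3 on the other strand, though in RefSeq these genes adjoin without overlap. Bin3 had a log2 change of -0.15 at P16 against control (SE 0.072, limma adjusted p 0.117). Phf1 overlaps Cuta on the other strand, which fell by 0.27 (SE 0.069, limma adjusted p 0.00782), more than Phf1 in that table. Mdga1 overlaps the antisense gene Gm16758, with 26 reads in all 16 libraries together. Ttbk1 overlaps the antisense gene Gm47119, with 5 reads, and the noncoding gene Gm26904, for which no value was matched. Ergic3, Ugt8a and Krt79 overlap no gene in GENCODE M21, but in RefSeq Ergic3 overlaps 6430550D23Rik and Ugt8a overlaps the noncoding gene Gm40145. Dnph1, next to Ttbk1 on chromosome 17, fell by 0.62 (SE 0.11, limma adjusted p 8.42e-04) and also passed in the fit over both kits (log2 change -0.51, limma adjusted p 0.0139). The other adjoining genes that could be tested, 6430550D23Rik and Fer1l4 on either side of Ergic3, 9930012K11Rik beside Ccar2 and Ccdc167 beside Mdga1, did not pass, with log2 changes from -0.32 to 0.23.

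Markers of testis cell types moved with the genotype at P16 in the first kit. The summed level of 8 spermatogonial markers was 770.2 to 778.5 CPM in control and 568.6 to 578.3 in cKO, and 7 of the 8 were called lower. That of 8 early meiotic prophase markers was 2217 to 2303 and 1612 to 1745 CPM, with 8 of 8 called lower. Sertoli markers had 3521 to 3731 CPM in control and 4327 to 4750 in cKO (7 of 8 called higher), and macrophage markers 99.4 to 104.8 and 134.8 to 137.2 (5 of 5 called higher). These calls were fewer in the other fits: limma called 0 of 8 spermatogonial markers against Cre control and 0 of 8 over both control types. It called 2 and 6 of 8 early meiotic markers lower in these fits, 1 and 2 of 8 Sertoli markers higher, and 1 and 3 of 5 macrophage markers higher. In the fit against Cre control, the first-kit cKO libraries differ from the Cre controls in kit as well. The second-kit cKO library held 745.3 CPM of spermatogonial markers, within the Cre control range of 613.4 to 806.7, and 1033 of early meiotic ones, below the range of 1088 to 1520. Its Sertoli and macrophage sums, 5123 and 126.6 CPM, lay above the ranges of 4018 to 4891 and 90.3 to 113.3. Most of each Sertoli sum was Clu, with 86534 deposited normalized counts in that library and 67981 to 82857 in the Cre controls. By sign, 4 of 8 Sertoli markers were higher and 4 lower in the fit against Cre control. Against control at P16, 2 of 5 Leydig, 1 of 5 peritubular myoid and 2 of 4 endothelial markers were called higher and none of these lists had one called lower, while of 4 nerve and glia markers tested limma called 0.

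The pachytene and later markers, 8 genes, summed to 318.5 to 347.5 CPM in control at P14 and to 923 to 943.6 at P16. In first-kit cKO they went from 318 to 503.1 CPM up to 1016 to 1139, above the P16 controls. There the P16 mean was 1.02 times that of P14 for Ttbk1 and 1.57 times for Phf1. Against control at P16, limma called 3 of the 7 markers tested higher and 1 lower. In the second kit the marker sum went from 167 to 234 up to 561.5 to 1121 CPM in Cre control and from 157.9 to 622 in cKO. For Krt79, the epithelial markers Krt5 and Krt14 had 0 reads in every library, and the 5 epithelial markers summed to 53.0 CPM in both P16 controls and 34.1 to 35.1 in cKO. Most of that sum was Epcam, with 1117 and 1091 deposited normalized counts in control and 597 and 622 in cKO. Epcam and Cdh1 were called lower against control, and Trp63 was called higher (log2 change 0.50, SE 0.12). For Ttbk1 and Mdga1, the 6 nerve and glia markers summed to 25.4 to 28.9 CPM in the P16 controls and 27.9 to 29.4 in cKO, so the groups overlapped. The part of these markers in the members' differences was not tested.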

How the data were processed

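RNA of 16 testis libraries was measured by RNA sequencing. The authors deposited 4 tables, each of 1 stage and 1 control type, whose signal values are read counts per gene divided by a size factor of the library. Per the file headers these are gene counts of STAR from trimmed first mates. Trim Galore, STAR, HTSeq and DESeq2 and the build GRCm39 (mm39) are named per the submitters' processing notes. Their versions and the annotation release are not given in the sources used here. In all 20 columns 100% of the nonzero values came out as whole reads once divided by the step that 1 read makes (tolerance 0.01 reads), so whole reads were recovered, and 0 columns were left without a sample. cKO libraries 1 and 2 stand in both tables of their stage with the same reads.

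The main test was limma 3.58.1 (trend, R 4.3.3) on log2 values with a pseudocount of 1. Genes needed 10 or more deposited units in 2 or more libraries, with Benjamini-Hochberg adjustment over all genes tested. Fold changes are on that scale, which understates those of low genes. Fits over both kits used log2 CPM (TMM, prior count 1) of recovered reads with the kit as a covariate. edgeR 4.0.16 and DESeq2 1.42.0 on the recovered reads, other pseudocounts, filters and scalings, a replicate block and leaving out each library were alternatives. The scripts were tested on simulated data. STAR's summary rows were left out. No replicate pair agreed within sampling noise (chi-square per gene 2.36 to 23.8).

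The members, the gene lists and the tests were chosen with earlier results of these data known. Named are the members, Ythdc2, the called list genes with the largest changes (up to 4 per list), the neighbours of the members, and the 3 genes most like each member. A result that this rule would name is not reported here. Cuta and Mdga2's second-kit values were added after the data had been seen. Names, overlaps and neighbours come from GENCODE M21 and RefSeq of GRCm38, another build than that of the files. Coordinates are therefore given only for the promoter windows shown, and these are of GRCm38.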

Additional observations from a re-analysis of the deposited data

Results flagged for a closer look

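Ugt8a was nearly level between the stages in control and lower at P16 than at P14 in the Cre controls. Both P16 control libraries lay slightly above both P14 ones, as for 28.5% of all genes, with a difference of mean log2 CPM of 0.058. Every P16 Cre control library lay below every P14 one, with -0.66, and the share of all genes with that is not given here. The difference between the control types was not tested. It goes together with the kit, and for 3 of the 4 P16 Cre controls with the run.

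Mdga1 in the second kit stood above both Cre controls in the cKO library at P14, with a difference of mean log2 CPM of 0.29, and below all 4 at P16, with -0.41. There is 1 cKO library at each stage, and this difference was not tested.

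The Cre controls at P16 were the only group with enough libraries to look for a single library far from the others. By Dixon's gap test, at its 95% critical value for 4 libraries, none passed for the 7 genes or Ythdc2. Krt79 in library 1, at 2.09 CPM against 0.939 to 1.17 in the others, came under that value, and a test on 4 libraries can miss a library that stands apart.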

How the results depend on the processing

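Replicate numbers are shared by the groups, and the main fits assumed no pairing by them. The deviations of same-numbered libraries from their group means had r of 0.127 at P14 and 0.060 at P16 in the first kit. With 2 libraries per group, both numbers must give the same r. With the Cre controls r ranged from -0.192 to 0.277, with cKO libraries of both kits pooled. These values cannot settle whether the libraries were paired. With the replicate block the called genes numbered 5 at P14 against control (main 1), 6966 at P14 against Cre control (main 0), 0 at P16 against Cre control (main 1741) and 987 at P16 over both control types (main 2701), and 8200 at P16 against control (main 6939). For Cre control the block at P14 leaves cKO library 3 out in effect. It called Ttbk1 (limma adjusted p 0.0235), Phf1 (0.00312) and Mdga1 (0.0397) at P14 against Cre control, and no member in the other P14 fits. At P14 against control, no filter gave 0 called genes and DESeq2 6, DESeq2 gave 5 against Cre control, and edgeR gave 2 over both control types. At P16 against Cre control, a pseudocount of 10 gave 3277, no filter 917, DESeq2 4188 and the kit as a covariate 1. Leaving out 1 library gave 0 to 11 called genes at P14 against control, 0 to 6256 at P14 against Cre control, 4591 to 7045 at P16 against control, 0 to 9427 at P16 against Cre control and 700 to 3307 at P16 over both control types. The highest counts against Cre control are those without cKO library 3. At P16 every count against Cre control that left out 1 library moved by over 1.5 times. So did the count without control library 1 (4591 against control) and, over both control types, those without either control library (878 and 840) or without cKO library 1, 2 or 3 (700, 1278 and 1416). An arm left with 1 library is assumed to vary like the others. The causes were not tested.

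The first-kit P16 differences of all 7 members kept their sign under every alternative run. At P14 against control, members near 0 changed sign: Krt79 was -0.0018 with TMM scaling, -0.0028 with edgeR and -0.0034 with DESeq2, and Phf1 0.0076 with edgeR and 0.0075 with DESeq2. At P14 against Cre control Mdga1 was 0.30 with the kit as a covariate, and Ugt8a 0.079 with the replicate block. Over both control types with the replicate block, Ttbk1 was 0.14, Ccar2 0.0053 and Krt79 -0.0019. Without 1 library the P14 changes against control ranged from -0.20 to 0.20 for Phf1, -0.14 to 0.15 for Krt79, -0.14 to 0.097 for Ergic3, -0.087 to 0.37 for Ttbk1 and -0.071 to 0.091 for Ccar2. Against Cre control they ranged from -0.25 to 0.48 for Krt79 and -0.11 to 0.079 for Ugt8a. Over both control types they ranged from -0.22 to 0.12 for Mdga1, -0.064 to 0.18 for Krt79, -0.24 to 0.14 for Ttbk1 and -0.18 to 0.0053 for Ccar2. Reads limit Krt79 and Mdga1 most, with 10 to 85 and 22 to 145 reads per library.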

Other observations

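Several of the genes most like a member had large P16 differences of their own. Shank1, a scaffold protein of synapses that ranked next to Ergic3, had log2 changes of -0.82 (SE 0.16) against control and -2.01 (SE 0.29) against Cre control at P16. Pcdh11x, a protocadherin that ranked next to Krt79, had -1.91 (SE 0.25) against control and 0.13 (SE 0.34) against Cre control. Hey1, a transcriptional repressor of the Notch pathway that ranked next to Mdga1, had -1.65 (SE 0.11) and -0.45 (SE 0.20), and Pbx3, a homeobox factor that ranked next to Ugt8a, had -1.36 (SE 0.073) and -0.94 (SE 0.20). The fit against Cre control had no term for the kit, and its first-kit cKO libraries differ from the Cre controls in kit as well. Its values thus cannot be assigned to genotype alone. In the P16 fit over both kits the log2 change was -1.002 (SE 0.13) for Shank1 and -0.92 (SE 0.42) for Pcdh11x. It was -0.97 (SE 0.26) for Hey1 and -0.95 (SE 0.16) for Pbx3. These genes were picked by their likeness to the members over the same libraries, so their differences carry no test.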
